A study of Mus musculus with 6 samples.

Results

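The genes described here are 9 components of the basement membrane: the laminin chain genes Lama3, Lama5, Lamb1, Lamb2, Lamb3 and Lamc1, the collagen IV chain genes Col4a1 and Col4a2, and Hspg2, which encodes the heparan sulfate proteoglycan perlecan. They were taken by symbol from a deposited table of 24493 genes, and all 9 were found in it. The 6 RNA-seq libraries were made from KPCY cells, mouse pancreatic tumour cells of the C57BL/6 strain that carry a yellow fluorescent lineage label. The groups were cells transduced with shPthlh oligo #1 (shPthlh1, n = 2), cells transduced with shPthlh oligo #2 (shPthlh2, n = 2) and cells transduced with the non-targeting hairpin shNT (n = 2). Pthlh encodes parathyroid hormone-related protein, and the question behind the comparisons was what its knockdown changes in these cells. The series mentions 2 parental clones but does not say which clone a library came from, so hairpin and clone cannot be told apart. The labels call the material tumour cells sorted from animals, while the protocols describe cultured cells.

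A basement membrane is the thin sheet of matrix on which epithelial cells sit. Laminins are trimers of an alpha, a beta and a gamma chain that bind integrins and dystroglycan on the cell and form the first network of the sheet; collagen IV forms the second network, which gives it strength; nidogens, perlecan and agrin link them. In the pancreas this sheet surrounds ducts and acini, and carcinoma cells meet it when they invade. Both laminin and collagen IV chains are assembled in the endoplasmic reticulum before secretion, so a trimer needs its chains together.

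Levels are given in TPM, a transcript abundance scaled to the library total and corrected for transcript length, so that it can be set side by side between genes. Differences are on the log2(TPM + 1) scale, from a limma model of all 11549 genes with at least 1 TPM in at least 2 libraries, and were called at a Benjamini-Hochberg adjusted p under 0.05. Of the 9 genes, 8 passed this filter. Pthlh, the targeted gene, was at 0 and 0.106 TPM in shPthlh1 libraries, at 0.0423 and 0.263 TPM in shPthlh2 libraries, and at 0.752 and 0.966 TPM in shNT libraries. In a fit without the filter its difference from shNT was -0.82 for shPthlh1 (limma adjusted p = 0.00837) and -0.69 for shPthlh2 (limma adjusted p = 0.0583). Only the shPthlh1 difference passed the threshold. The difference between the hairpin groups was 0.13 (limma adjusted p = 0.533). Mean Pthlh TPM was 6.14% of the shNT mean in shPthlh1 and 17.8% in shPthlh2 libraries. At such low levels the added 1 shrinks differences, so this test cannot show that both hairpins lowered Pthlh equally. Replicates correlated at 0.987 (shNT) to 0.992 (shPthlh1) across genes. Libraries of shNT and shPthlh2 correlated with each other at 0.982 to 0.988, and those of shNT and shPthlh1 at 0.960 to 0.965. The shNT replicates were thus no more alike than shNT replicate 2 and shPthlh2 replicate 2. The read depth of each library is unknown. The Mir6236 entry took 19.7% to 20.4% of all TPM in shPthlh1, 21.4% to 23.4% in shPthlh2 and 24.3% to 34.1% in shNT libraries. Its share shifts every other TPM, and the median of all genes tested was 0.11 for shPthlh1 minus shNT and 0.087 for shPthlh2 minus shNT, while the same medians were -0.060 and -0.034 without the small-RNA entries. With 2 libraries a group, an exact two-sided permutation test of 1 value cannot go below p = 0.333, so only the model across genes gives a test.

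The libraries held keratin-rich epithelial cells. Krt8 averaged 1783 TPM in shPthlh1, 1350 in shPthlh2 and 1479 in shNT libraries, and Cdh1, the gene of E-cadherin, averaged 235, 282 and 299 TPM in the same groups. Of 7 epithelial markers, 5 were tested, and in shPthlh1 against shNT cells 2 were higher and 3 lower: Krt19 averaged 989 TPM in shPthlh1 and 426 TPM in shNT libraries (1.21; limma adjusted p = 0.000116), Krt8 differed by 0.27, Krt18 by -0.43, Cdh1 by -0.34 and Krt7 by -0.30. The part of this shift in the results was not tested. The epithelial markers Epcam and Cldn4 were near 0, with highest levels of 0.605 and 0.235 TPM in any library. All 9 fibroblast markers stayed under 1 TPM and summed to 0.386 to 0.390 TPM in shPthlh1, 0.423 to 0.453 in shPthlh2 and 0.286 to 0.522 in shNT libraries, with Lum and Fap at 0 throughout. All 6 pericyte and smooth muscle markers stayed under 1 TPM, with sums of 0.414 to 0.462, 0.151 to 0.289 and 0.175 to 0.273 TPM. Of 7 endothelial markers, 6 stayed under 1 TPM, and the sum, carried by Egfl7, was 6.85 to 7.499, 6.12 to 8.05 and 6.01 to 6.65 TPM. Of 7 haematopoietic markers, 6 stayed under 1 TPM, and the sum, carried by Cd68, was 1.41 to 2.77, 2.18 to 2.58 and 1.74 to 2.91 TPM.

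Col4a1 and Col4a2 lie head to head, an arrangement that is known for this pair and places both starts in one region. In mm10, Col4a1 runs from 11198423 to 11312826 on the minus strand of chromosome 8 and Col4a2 from 11312805 to 11449287 on the plus strand, so the annotated genes overlap by 22 bases at their 5′ ends. Their RefSeq start sites (GRCm38.p6, the same assembly) are 21 bases apart, and the windows from 250 bases before to 50 bases after each start share 78 bases. The 2 windows are shown because the starts of this pair, both of which were expressed in every library, lie within them; the capitals mark the shared 78 bases, which run as reverse complements, Col4a1 at chr8:11312777-11313076 on the minus strand and Col4a2 at chr8:11312555-11312854 on the plus strand.
Col4a1: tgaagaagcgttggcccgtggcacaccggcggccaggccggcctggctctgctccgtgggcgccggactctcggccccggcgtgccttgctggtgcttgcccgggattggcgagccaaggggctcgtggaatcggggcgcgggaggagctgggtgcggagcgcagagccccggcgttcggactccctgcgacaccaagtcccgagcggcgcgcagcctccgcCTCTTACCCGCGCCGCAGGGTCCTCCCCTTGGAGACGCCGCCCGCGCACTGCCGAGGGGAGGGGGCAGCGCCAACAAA
Col4a2: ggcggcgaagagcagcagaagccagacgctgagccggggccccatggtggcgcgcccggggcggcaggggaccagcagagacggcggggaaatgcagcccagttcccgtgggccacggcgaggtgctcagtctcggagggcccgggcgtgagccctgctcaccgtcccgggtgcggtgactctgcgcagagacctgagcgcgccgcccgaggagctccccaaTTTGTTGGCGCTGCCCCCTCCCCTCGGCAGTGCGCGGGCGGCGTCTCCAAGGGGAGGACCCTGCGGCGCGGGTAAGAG

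The windows are rich in G and C, at 74% for Col4a1 and 73.7% for Col4a2, against a median of 52.7% over 32851 promoters. On both strands, the GC box (GGGCGG) matched once in the Col4a1 window and 3 times in the Col4a2 window. The Col4a1 match is also among the Col4a2 matches, as the same site within the shared bases. Of all promoters, 35.7% hold a GC box. The CCAAT box (CCAAT) matched once in each, as in 37.4% of promoters, and no match overlapped that of another motif. Neither window held the letters of a TATA box (TATAAA, 13.6% of promoters), an AP-1 site (TGANTCA, 7.81%), a TEAD site (GGAATG, 14.7%), a cAMP response element (TGACGTCA, 1.79%) or an E-box (CACGTG, 7.15%). Of the other members in the table, the GC box matched 4 times for Lama5, 5 times for Hspg2, 2 times for Lamb1 and 0 times for Lamb2 and for both Lamb3 windows, and a TEAD site matched in 1 window of Lamb3. Lama3 and Lamc1 have no window here.

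In shNT cells, the order of levels put collagen IV and the chains of laminin-511, the trimer of alpha5, beta1 and gamma1 that is widespread under epithelia, on top. Col4a1 was highest at 117 ± 9.22 TPM (SD, n = 2, as for all means of this paragraph), then Lama5 at 67.7 ± 2.92, Col4a2 at 62.2 ± 1.31, Lamc1 at 61.6 ± 2.90, Lamb1 at 36.4 ± 1.67, Lamb3 at 27.2 ± 1.48, Hspg2 at 18.7 ± 0.729 and Lamb2 at 18.2 ± 1.599 TPM. The shNT libraries of Col4a2 and Lamc1 overlapped, as did those of Hspg2 and Lamb2; the other neighbours in this order did not. Lama3 stood apart at 0.107 and 0.205 TPM, although it encodes the alpha chain of laminin-332, whose beta chain gene Lamb3 was at 27.2 TPM in the same cells. Of all alpha chain TPM (Lama1 to Lama5), Lama5 took 99.6% to 99.8% in each of the 6 libraries.

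**Figure D1:**
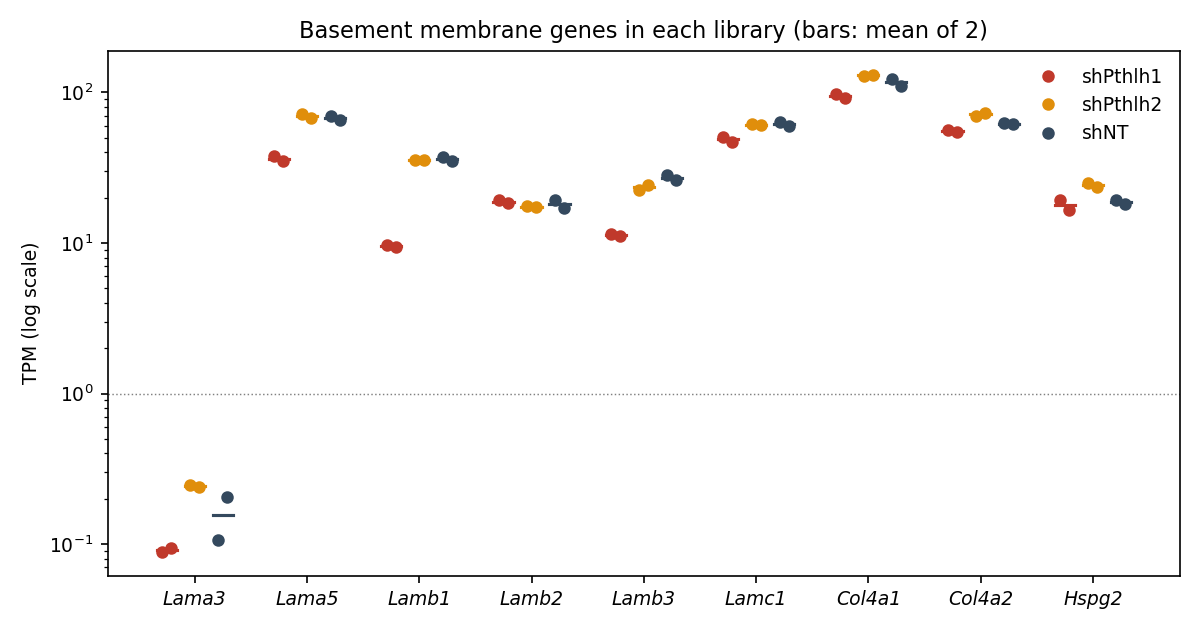
TPM of each gene (log axis) in the 2 libraries of shPthlh1 (red), shPthlh2 (orange) and shNT (dark blue), with a bar at each mean and a dotted line at 1 TPM. Lamb1, Lamb3 and Lama5 sit lower in both shPthlh1 libraries than in all others, while Lamb2 sits at 17.1 to 19.4 TPM in every library.

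The first comparison set shPthlh1 against shNT cells. Laminin chain genes fell: Lamb1 to 26.2% of its shNT mean, Lamb3 to 41.8%, Lama5 to 53.7% and Lamc1 to 79.0%. Col4a1 and Col4a2 fell less, to 81.2% and 89.1%. Lamb2 and Hspg2 were not called, at 103% and 96.0% of shNT. Of the 8 genes tested, 6 were lower and 0 higher by limma, with 6 and 0 at an unadjusted p under 0.05; over all genes tested, 18.1% were lower and 32.1% higher, which became 24.3% lower and 22.7% higher with median-ratio scaling and 24.4% lower and 14.8% higher without small-RNA entries. The median difference of the 8 was -0.32, against 0.11 for all genes. In bulk RNA of this kind, fewer cells that make a transcript and less of it per cell cannot be told apart.

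Lamb1 encodes beta1, the beta chain of laminin-111, laminin-211, laminin-411 and laminin-511, and lies on chromosome 12 from 31265234 to 31329644 on the plus strand (mm10). It was at 9.73 and 9.35 TPM in shPthlh1 libraries, against 37.5 and 35.2 TPM in shNT libraries. Both shPthlh1 libraries were far below both shNT libraries, which lay close together. The difference was -1.82 ± 0.052 (log2, SE; limma adjusted p = 3.17e-05), the 47th lowest of all genes tested. The genes of chromosome 12 had a median difference of 0.20 in this comparison.

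Lamb3 encodes beta3, which is known from laminin-332, the laminin that anchors epithelia through hemidesmosomes; it lies on chromosome 1 from 193207699 to 193343878 on the plus strand. It was at 11.5 and 11.2 TPM in shPthlh1 libraries, against 28.2 and 26.1 TPM in shNT libraries. The groups did not overlap, and the difference was -1.19 ± 0.065 (log2, SE; limma adjusted p = 0.000189). Hsd11b1 and G0s2 overlap this locus on the other strand and had highest levels of 0.0843 and 0.541 TPM; 4 further annotated transcripts that overlap it were not analysed here. Lama3, the alpha chain gene of the same trimer, was at 0.0888 and 0.0944 TPM in shPthlh1 libraries, under the filter; without the filter its difference from shNT was -0.081 (limma adjusted p = 0.3003).

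Lama5 encodes alpha5, the alpha chain of laminin-511 and laminin-521, and lies on chromosome 2 from 180176373 to 180225859 on the minus strand. It was at 37.9 and 34.8 TPM in shPthlh1 libraries, against 69.7 and 65.6 TPM in shNT libraries. The groups did not overlap, and the difference was -0.88 ± 0.063 (log2, SE; limma adjusted p = 0.000414). The 910 tested genes of chromosome 2 also had a low median, -0.27, in shPthlh1 cells; with each chromosome centred on its own median the Lama5 difference was -0.60 (limma adjusted p = 0.00145; over 17 alternatives 3.64e-05 to 0.00647). The part of the chromosome in the Lama5 difference was not tested beyond this.

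Lamc1 encodes gamma1, which is shared by most laminin trimers, and lies on chromosome 1 from 153218922 to 153332786 on the minus strand. It was at 50.4 and 47.0 TPM in shPthlh1 libraries, against 63.7 and 59.6 TPM in shNT libraries, with no overlap. Its difference of -0.33 ± 0.056 (log2, SE; limma adjusted p = 0.00525) was smaller than those of Lamb1, Lamb3 and Lama5. Lamb2 encodes beta2, the beta chain of laminin-521, and lies on chromosome 9 from 108479736 to 108490530 on the plus strand. It was at 19.2 and 18.4 TPM in shPthlh1 libraries, against 19.4 and 17.1 TPM in shNT libraries, so the groups overlapped. Its difference was 0.043 (95% interval -0.13 to 0.22; limma adjusted p = 0.627), and its sign turned to -0.057 with median-ratio scaling, to -0.033 with quantile normalization, to -0.13 without small-RNA entries and to -0.042 without shNT replicate 2. The genes of chromosome 9 had a median difference of -0.13 in this comparison. With each chromosome centred on its own median, the Lamb2 difference was 0.18 (limma adjusted p = 0.0878).

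Col4a1 and Col4a2 encode the alpha1 and alpha2 chains, which form the most widespread collagen IV trimer, with a pair of alpha1 chains to each alpha2. Col4a1 was at 98.1 and 91.2 TPM in shPthlh1 libraries, against 123 and 110.0 TPM in shNT libraries, and differed by -0.30 ± 0.069 (log2, SE; limma adjusted p = 0.0168). Col4a2 was at 56.4 and 54.4 TPM in shPthlh1 libraries, against 63.1 and 61.3 TPM in shNT libraries, and differed by -0.16 ± 0.046 (limma adjusted p = 0.0299). In neither gene did the groups overlap, though the gap was narrow. The Col4a1 call was lost without shPthlh1 replicate 2 (limma adjusted p = 0.101; over 17 alternatives 0.00380 to 0.101). The Col4a2 call was lost without shPthlh1 replicate 1 (limma adjusted p = 0.0790), shPthlh1 replicate 2 (0.154), shPthlh2 replicate 1 (0.0601), shPthlh2 replicate 2 (0.0602) or shNT replicate 1 (0.0606), with no variance trend (0.0532), with only the groups compared (0.0602) and with the replicate block (0.0512), and its 17 alternatives spanned 0.00394 to 0.154. Without shPthlh1 replicate 2, 4 of the 8 genes were called lower.

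Hspg2, on chromosome 4 from 137468769 to 137570630 on the plus strand, was at 19.3 and 16.6 TPM in shPthlh1 libraries, against 19.2 and 18.2 TPM in shNT libraries. The groups overlapped, and the difference was -0.059 (95% interval -0.26 to 0.15; limma adjusted p = 0.575), with the sign turned to 0.042 without shPthlh1 replicate 2.

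**Figure D2:**
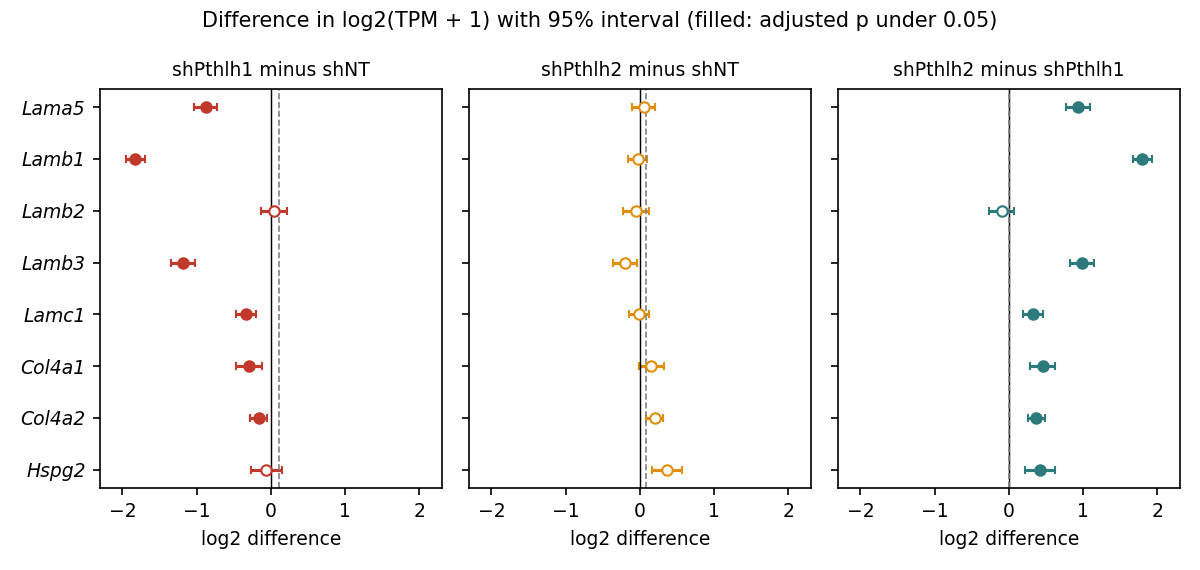
Differences in log2(TPM + 1) of the 8 genes tested for shPthlh1 minus shNT, shPthlh2 minus shNT and shPthlh2 minus shPthlh1, with 95% intervals, filled where the limma adjusted p was under 0.05; the dashed line is the median of all genes. Lamb1 lies at -1.82 in the first panel, 0 of 8 points are filled in the second, and 7 of 8 in the third.

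The second comparison set shPthlh2 against shNT cells. By limma 0 of the 8 genes were higher and 0 lower, while at an unadjusted p under 0.05 there were 2 higher (Col4a2 and Hspg2) and 1 lower (Lamb3). Over all genes tested 6.62% were higher and 3% lower, which became 2.11% higher and 4.8% lower with median-ratio scaling and 1.27% higher and 3.23% lower without small-RNA entries. The median difference of the 8 was 0.019, against 0.087 for all genes.

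Lamb1, the gene that was lowest with shPthlh1, was at 35.5 and 35.6 TPM in shPthlh2 libraries, against 37.5 and 35.2 TPM in shNT libraries. The groups overlapped, and the difference was -0.029 (95% interval -0.16 to 0.099; limma adjusted p = 0.728), turning to 0.017 without shNT replicate 1. Lama5 was at 72.2 and 68.0 TPM in shPthlh2 libraries, against 69.7 and 65.6 TPM in shNT libraries, also with overlap. Its difference was 0.0495 (95% interval -0.11 to 0.21), with the sign turned to -0.045 by median-ratio scaling, to -0.034 by quantile normalization and to -0.083 without small-RNA entries. Lamc1 was at 61.5 and 60.8 TPM in shPthlh2 libraries, within the shNT range, with a difference of -0.011 (95% interval -0.15 to 0.13) that turned to 0.036 without shNT replicate 1. Lamb2 was at 17.6 and 17.3 TPM in shPthlh2 libraries, also within the shNT range, with a difference of -0.057 (95% interval -0.23 to 0.12) that turned to 0.028 without shNT replicate 1 and to 0.049 with each chromosome centred.

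Lamb3, at 22.4 and 24.4 TPM in shPthlh2 libraries, was below both shNT libraries, with a difference of -0.20 ± 0.065 that missed the threshold (log2, SE; limma adjusted p = 0.0989). Col4a1, at 128 and 131 TPM, was above both shNT libraries, with a difference of 0.16 (95% interval -0.017 to 0.33; limma adjusted p = 0.186). Col4a2, at 70.1 and 73.0 TPM, differed by 0.20 ± 0.046 (limma adjusted p = 0.0537), and Hspg2, at 25.2 and 23.5 TPM, by 0.36 ± 0.082 (limma adjusted p = 0.0525). Both lay above both shNT libraries and just outside the threshold. With a filter at a mean of 5 TPM, which leaves fewer genes to adjust over, both passed (limma adjusted p = 0.0469 for Col4a2 and 0.0427 for Hspg2); over their alternatives the range was 0.0469 to 0.765 for Col4a2 and 0.0427 to 0.335 for Hspg2. Lama3 was at 0.245 and 0.238 TPM in shPthlh2 libraries, under the filter.

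**Figure D3:**
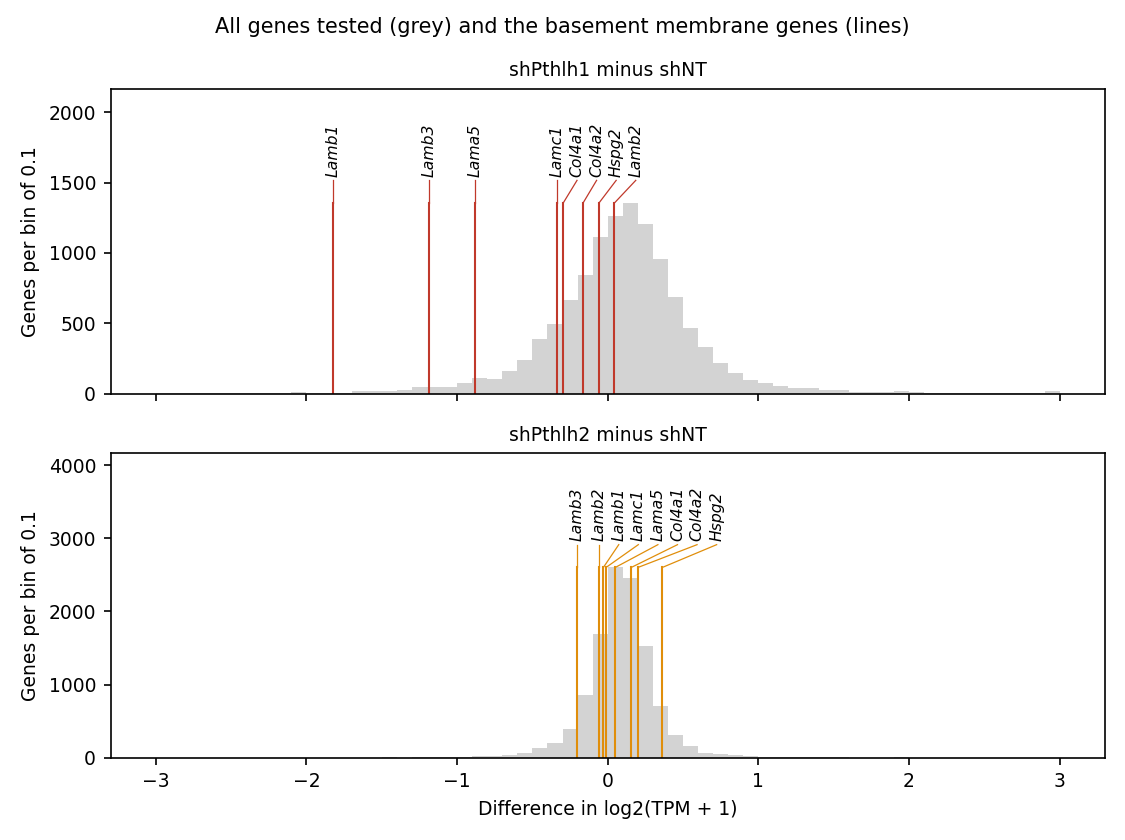
Number of tested genes in each bin of 0.1 of the difference in log2(TPM + 1), for shPthlh1 minus shNT above and shPthlh2 minus shNT below, with the 8 basement membrane genes as lines; values beyond 3 in size stand in the end bins. Lamb1, Lamb3 and Lama5 lie in the lower tail with shPthlh1, where 0.398%, 1.52% and 3.16% of genes lie lower than each; with shPthlh2, 25.02%, 8.09% and 41.03% of genes lie lower.

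Both comparisons share the shNT libraries, so the hairpins were also set against each other directly. Of the 8 genes, 7 were higher in shPthlh2 than in shPthlh1 cells and 0 lower by limma, with 7 and 0 at an unadjusted p under 0.05; over all genes tested 19.9% were higher and 20.2% lower. Lamb1 averaged 35.6 ± 0.0608 TPM in shPthlh2 and 9.54 ± 0.268 TPM in shPthlh1 cells (SD, n = 2 each), a difference of 1.80 ± 0.052 (log2, SE; limma adjusted p = 4.12e-05). Lamb3 averaged 23.4 ± 1.42 and 11.4 ± 0.239 TPM in shPthlh2 and shPthlh1 cells (0.98 ± 0.065; limma adjusted p = 0.000438). Lama5 averaged 70.1 ± 2.96 and 36.3 ± 2.18 TPM in the same groups (0.93 ± 0.063; limma adjusted p = 0.000497). The genes of chromosome 2 had a median of 0.28 in this comparison. With each chromosome centred on its own median, the Lama5 difference was 0.65 (limma adjusted p = 0.00155).

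Collagen IV and perlecan differed between the hairpins as well, by less. Col4a1 averaged 129.7 ± 2.305 TPM in shPthlh2 and 94.6 ± 4.87 TPM in shPthlh1 cells (0.45 ± 0.069; limma adjusted p = 0.00542), and Col4a2 71.6 ± 2.04 and 55.4 ± 1.43 TPM (0.36 ± 0.046; limma adjusted p = 0.00288). Hspg2 averaged 24.3 ± 1.18 and 18.0 ± 1.88 TPM (0.42 ± 0.082; limma adjusted p = 0.0116), a call lost without shPthlh1 replicate 2 (0.0527) or shPthlh2 replicate 1 (0.0755), with alternatives from 0.00772 to 0.0755. Lamc1 averaged 61.1 ± 0.515 and 48.7 ± 2.38 TPM (0.32 ± 0.056; limma adjusted p = 0.00792), a call lost without shPthlh1 replicate 2 (0.0553), shPthlh2 replicate 1 (0.0571) or shPthlh2 replicate 2 (0.0504), with alternatives from 0.00372 to 0.0571. Lamb2 was the gene not called, at 17.5 ± 0.192 TPM in shPthlh2 and 18.8 ± 0.626 TPM in shPthlh1 cells (-0.10, 95% interval -0.27 to 0.07; limma adjusted p = 0.301), and its libraries did not overlap.

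The series' own contrast sets knockdown against wild type, here the mean of both hairpin groups minus shNT. In it 4 of the 8 genes were lower and 0 higher by limma (4 and 0 at an unadjusted p under 0.05), and the called genes were Lamb1 (-0.93), Lamb3 (-0.70), Lama5 (-0.41) and Lamc1 (-0.17; limma adjusted p = 0.0375). Over all genes tested 12.1% were lower and 27.3% higher, which became 18.7% lower and 15.1% higher with median-ratio scaling and 16.8% lower and 8.33% higher without small-RNA entries. Each of these means averages a low shPthlh1 value with a shPthlh2 value near shNT. The Lama5 value was -0.28 with each chromosome centred on its own median. With the hairpins as 1 group of libraries, so that their difference entered the spread, there were 0 calls by limma among these 8, also at an unadjusted p under 0.05, with 0.00866% of all genes lower and 0% higher. The Lamc1 call was also lost without shPthlh1 replicate 1 (limma adjusted p = 0.0573), shPthlh1 replicate 2 (0.1005), shPthlh2 replicate 1 (0.0962), shPthlh2 replicate 2 (0.109) or shNT replicate 1 (0.111), with no filter on low values (0.0558) and with no variance trend (0.0591), with alternatives from 0.0115 to 0.424.

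Ratios between chain genes within 1 library do not depend on how libraries are scaled. The shares of Lamb1 and Lamb2 in shPthlh1 libraries stood apart from those in the other 4 libraries. Lamb1 took 24.0% and 24.0% of beta chain TPM (Lamb1 to Lamb3) in shPthlh1 libraries, 47.0% and 46.0% in shPthlh2 libraries, and 44.1% and 44.9% in shNT libraries. Lamb2 took 47.5% and 47.2% in shPthlh1 libraries, 23.3% and 22.4% in shPthlh2 libraries, and 22.8% and 21.8% in shNT libraries. Lamb3 took 28.5% and 28.8% in shPthlh1 libraries, 29.7% and 31.6% in shPthlh2 libraries, and 33.1% and 33.3% in shNT libraries, with a gap between the hairpin groups smaller than the spread within shPthlh2. So Lamb2 was the leading beta chain gene in both shPthlh1 libraries and the lowest in the other 4, without a called change of its own level.

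**Figure D4:**
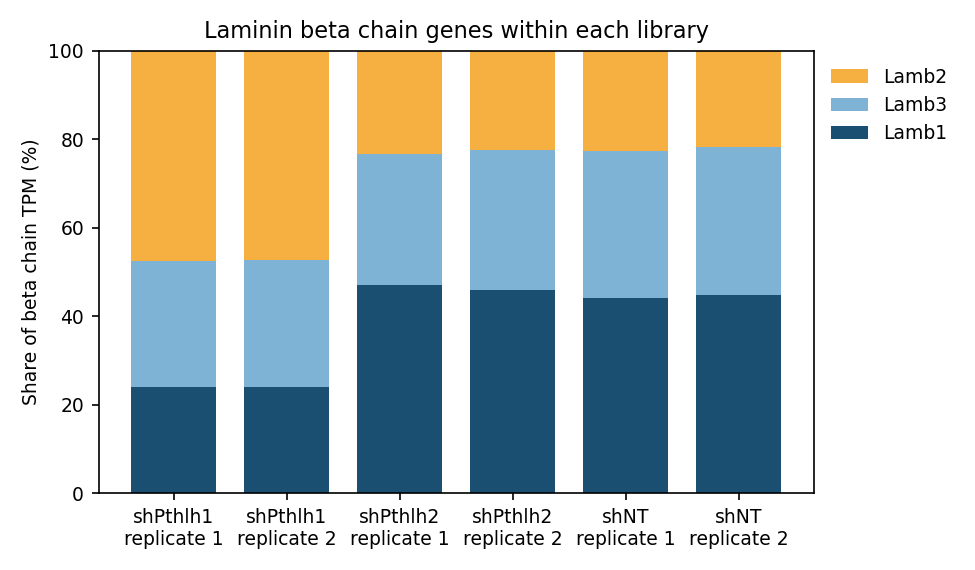
Share of the summed TPM of Lamb1, Lamb3 and Lamb2 in each library, in percent. Lamb2 (orange, top) takes 47.5% and 47.2% of the bar in shPthlh1 libraries and 21.8% to 23.3% in the others.

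Within the laminin-511 chains, the ratio of Lamb1 to Lamc1 was 0.193 and 0.199 in shPthlh1 libraries, 0.578 and 0.587 in shPthlh2 libraries, and 0.589 and 0.590 in shNT libraries. The ratio of Lama5 to Lamc1 was 0.752 and 0.740 in shPthlh1 libraries, 1.17 and 1.119 in shPthlh2 libraries, and 1.095 and 1.101 in shNT libraries. In both ratios the shPthlh1 libraries lay apart, while the replicates of each group lay close together. Summed over the family, alpha chains stood at 36.4 and beta chains at 39.7 TPM in shPthlh1 cells, at 70.3 and 76.5 TPM in shPthlh2 cells, and at 67.8 and 81.7 TPM in shNT cells.

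The ratio of Lama3 to Lamb3 was at most 0.0109 in any library. The Col4a1 to Col4a2 ratio was 1.74 and 1.68 in shPthlh1 libraries, 1.83 and 1.80 in shPthlh2 libraries, and 1.95 and 1.80 in shNT libraries. Its shPthlh1 libraries lay below those of both other groups, by a narrow gap. Whether the shared start region shown above bears on this ratio was not tested.

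The likeness of patterns was measured as the root mean square distance between log2(TPM + 1) values centred on each gene's mean over the 6 libraries, among 8704 other genes with a mean of at least 5 TPM. For Col4a1 the nearest of the 8 members was Col4a2, at a distance of 0.066, but 120 other genes lay nearer, the nearest being Asap1. For Lama5 and Lamb3 the nearest member was the other of the 2, at 0.15, and ranked 144 for Lama5 and 78 for Lamb3. The nearest gene of all was Fgd3 for Lama5, Dab2 for Lamb1, F2r for Lamb3, Cic for Lamb2, B230354K17Rik for Lamc1, Ftsj3 for Col4a2 and Tdrkh for Hspg2. F2r, the thrombin receptor gene, averaged 113 TPM in shPthlh1, 219 in shPthlh2 and 262 in shNT cells, and Dab2, an endocytic adaptor gene, 3.74, 14.8 and 14.3 TPM. These likenesses are descriptions over 6 libraries in 3 groups.

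Other basement membrane components were mixed in shPthlh1 cells. Of 30 listed genes, 12 were tested, of which 5 were lower and 3 higher than in shNT cells, beside 18.1% lower and 32.1% higher over all genes, and their median difference was -0.042, against 0.11 for all genes. Sparc, a collagen-binding matricellular protein, was at 11.2 and 11.3 TPM in shPthlh1 libraries, against 25.7 and 27.0 TPM in shNT libraries (-1.16 ± 0.052, log2, SE; limma adjusted p = 0.000121). Fbln2, a fibulin that binds laminins, was at 95.3 and 96.6 TPM in shPthlh1 libraries, against 225 and 203 TPM in shNT libraries (-1.15 ± 0.065; limma adjusted p = 0.000209). Fbln1, another fibulin, rose by 0.49 ± 0.053 (limma adjusted p = 0.00134), and Col4a5, a minor collagen IV chain, rose by 0.83 ± 0.11 (limma adjusted p = 0.00238) to 2.48 TPM, against 0.959 TPM in shNT cells. The other 18 listed genes, among them Lama1, Lama2, Lama4 and the skin basement membrane collagens Col7a1 and Col17a1, stayed under 1 TPM in every library.

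Receptors for laminin and collagen IV were mostly lower in shPthlh1 cells. Of 15 listed, 14 were tested, of which 8 were lower and 4 higher, beside 18.1% and 32.1% of all genes, and the median difference was -0.35. Itga2, a collagen and laminin binding integrin subunit, was at 19.8 and 19.0 TPM in shPthlh1 libraries, 19.4 and 19.6 TPM in shPthlh2 libraries, and 39.8 and 38.3 TPM in shNT libraries (shPthlh1 minus shNT -0.97 ± 0.048; limma adjusted p = 0.000147). The shPthlh2 difference of Itga2 was -0.96 (limma adjusted p = 0.00400), a call lost without shPthlh2 replicate 1 (0.0744) or replicate 2 (0.0560), with alternatives from 0.000424 to 0.0744. Itgb1, the beta subunit shared by most laminin-binding integrins, fell by 0.41 ± 0.047 (limma adjusted p = 0.00157). Sdc4, a heparan sulfate coreceptor, fell by 0.52 ± 0.042 (limma adjusted p = 0.000559). The Sdc4 difference was -0.70 to -0.24 over 17 alternatives, and -0.54 to -0.49 with a library left out. Itgb4, the hemidesmosomal subunit that binds laminin-332, rose by 0.89 ± 0.052 (limma adjusted p = 0.000231), to 22.1 and 21.3 TPM in shPthlh1 libraries, against 11.6 and 11.0 TPM in shNT libraries. Bcam, a receptor for laminin alpha5, rose by 0.81 ± 0.052 (limma adjusted p = 0.000308), to 54.5 and 57.1 TPM in shPthlh1 libraries, against 31.0 and 31.7 TPM in shNT libraries. Higher levels of Itgb4 and Bcam stood beside lower levels of Lamb3 and Lama5. The integrin subunit genes Itga6 (-0.39; limma adjusted p = 0.00327) and Itga3 (-0.35; limma adjusted p = 0.00178), also of this list, were lower. After removal of small-RNA entries, 2 receptor genes rather than 4 were called higher, and likewise with each chromosome centred.

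Among genes that fold, modify and crosslink collagen, 20 of 24 were tested, of which 9 were lower and 6 higher in shPthlh1 cells, beside 18.1% and 32.1% of all genes, and the median difference was -0.17. Serpinh1, the collagen chaperone HSP47, was at 15.7 and 16.0 TPM in shPthlh1 libraries, 67.5 and 71.4 TPM in shPthlh2 libraries, and 84.9 and 82.3 TPM in shNT libraries. Its shPthlh1 libraries lay far below all others (shPthlh1 minus shNT -2.33 ± 0.048; limma adjusted p = 1.70e-05). Fkbp10, a prolyl isomerase of procollagen, was at 10.2 and 10.5 TPM in shPthlh1 libraries, 52.5 and 52.5 TPM in shPthlh2 libraries, and 49.8 and 46.6 TPM in shNT libraries (shPthlh1 minus shNT -2.11 ± 0.050; limma adjusted p = 2.09e-05). Crtap, a partner of prolyl 3-hydroxylase, fell by 1.05 ± 0.098 (limma adjusted p = 0.000843) and Colgalt1, a collagen galactosyltransferase, fell by 0.38 ± 0.050 (limma adjusted p = 0.00243). P4ha1, a catalytic subunit of prolyl 4-hydroxylase, rose by 0.63 ± 0.068 (limma adjusted p = 0.00129). The number lower was 5 without shPthlh1 replicate 1, and the number higher was 1 without small-RNA entries and 3 with each chromosome centred.

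Of 15 proteases and inhibitors that act on basement membranes, 10 were tested, of which 6 were lower and 1 higher in shPthlh1 cells, beside 18.1% and 32.1% of all genes, and the median difference was -0.59. Timp3, a matrix-bound protease inhibitor, was at 1.27 and 1.37 TPM in shPthlh1 libraries, against 17.4 and 17.3 TPM in shNT libraries (-2.99 ± 0.059; limma adjusted p = 1.63e-05). Mmp13, a collagenase, was at 0.586 and 0.990 TPM in shPthlh1 libraries, against 12.4 and 13.03 TPM in shNT libraries (-2.95 ± 0.12; limma adjusted p = 9.47e-05). Mmp3, stromelysin, was listed at 0 and at 0.0806 TPM in shPthlh1 libraries, against 3.11 and 2.93 TPM in shNT libraries (-1.95 ± 0.12; limma adjusted p = 0.000253). Bmp1, the procollagen C-proteinase that also trims laminin chains, fell by 0.95 ± 0.053 (limma adjusted p = 0.000199). Hpse, the heparanase that cuts the chains of perlecan, rose by 0.996 ± 0.069 (limma adjusted p = 0.000357).

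In shPthlh2 cells, with 3% of all genes lower and 6.62% higher, the calls of the 4 lists against shNT were 1 lower and 3 higher among other components, 2 lower and 0 higher among receptors, 1 lower and 2 higher in collagen maturation, and 3 lower and 0 higher among proteases. The 3 proteases and inhibitors were Mmp13, at 5.68 and 5.76 TPM in shPthlh2 libraries (-1.03; limma adjusted p = 0.0161, with alternatives from 0.00155 to 0.134), Timp3, at 12.5 and 11.97 TPM (-0.47; limma adjusted p = 0.0187, from 0.0131 to 0.143), and Mmp3, at 1.84 and 1.52 TPM (-0.59; limma adjusted p = 0.0420, from 0.0320 to 0.2002). In collagen maturation, Serpinh1 was lower (-0.26; limma adjusted p = 0.0336, from 0.0187 to 0.184) and P4ha1 higher (0.53; limma adjusted p = 0.0205, from 0.0150 to 0.156). These 5 genes were called in the same direction for shPthlh1, against the same shNT libraries, as were Itga2, Dag1, Plod3 and Tinagl1. Nid1 and Agrn were called in opposite directions by the 2 hairpins. Nid1 was lower with shPthlh1 (-0.17; limma adjusted p = 0.0170) and higher with shPthlh2 (0.27; limma adjusted p = 0.0242). Agrn was also lower with shPthlh1 (-0.29; limma adjusted p = 0.00259) and higher with shPthlh2 (0.18; limma adjusted p = 0.0481). Without shPthlh2 replicate 1 or without shPthlh2 replicate 2, limma called 0 in each list and direction, with 0 to 4 at an unadjusted p under 0.05.

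**Figure D5:**
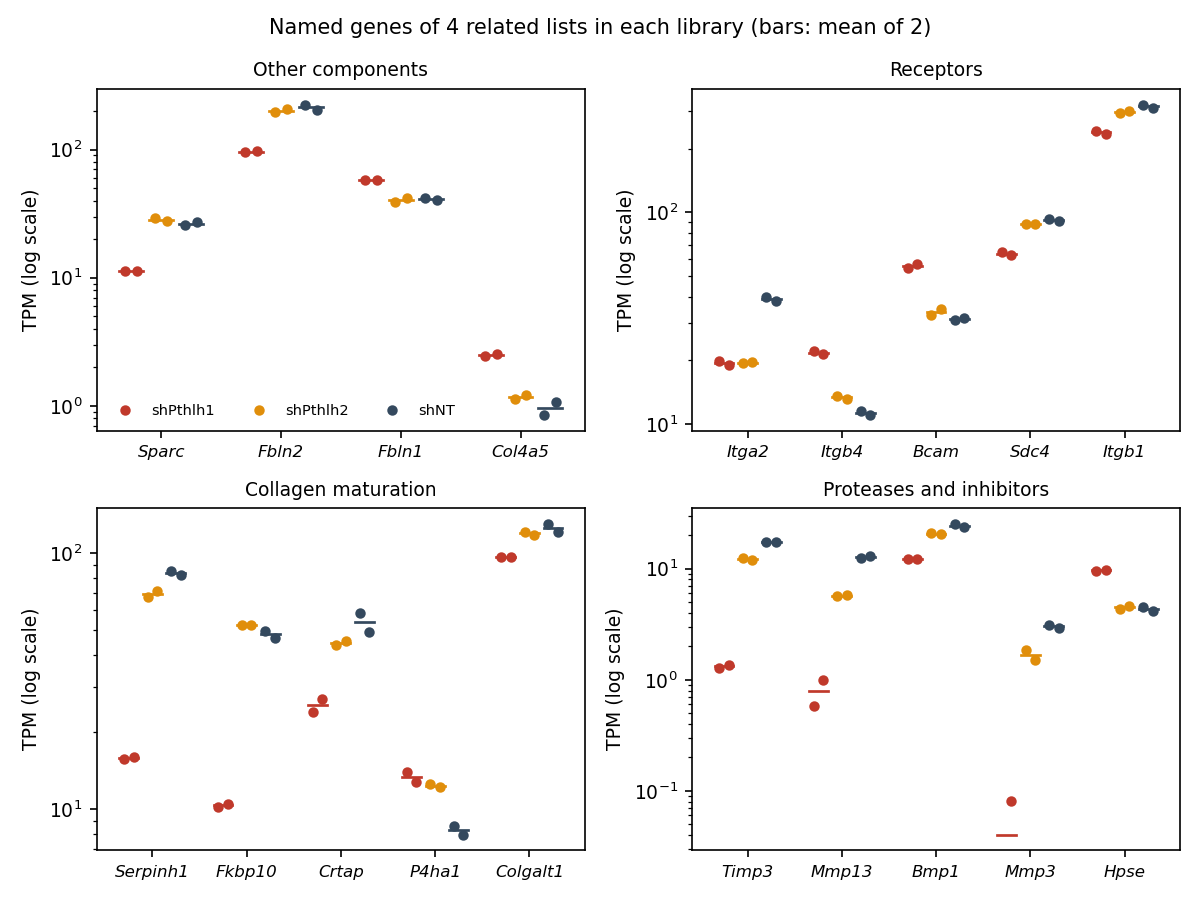
TPM (log axis) in the 2 libraries of shPthlh1 (red), shPthlh2 (orange) and shNT (dark blue) for 4 or 5 genes of each of 4 related lists, with a bar at each mean; the shPthlh1 library of Mmp3 at 0 has no point. Serpinh1, Fkbp10, Timp3 and Sparc sit lowest in shPthlh1 libraries, and Itgb4, Bcam and Hpse sit highest there.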

How the data were processed

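The authors deposited 1 table of gene-level TPM (length-corrected transcript abundance, scaled to one library total) for 24493 genes in 6 libraries. The submitters' processing notes name mm10, DESeq2, Salmon and R 3.5; their roles are not given in the sources used here. TPM carries no read counts, so no counting interval can be given. Groups and replicate numbers came from sample titles; nothing says that replicates were separate cultures, so p-values measure only how these libraries vary, and that variation may be technical.

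Genes with at least 1 TPM in at least 2 libraries were tested on log2(TPM + 1) with limma 3.58.1 in R 4.3.3 (3 group means, 6 libraries, variance trend), with Benjamini-Hochberg adjustment over 11549 genes. A pseudocount of 1 understates changes of low genes. Lama3 and Pthlh came from a fit of the 18323 genes above 0 in any library. The 9 genes, lists and tests were chosen with earlier results of these data known. From each list, counted in full, the 5 genes with the smallest p against shNT were named, except 1 that is not reported here; list genes named beyond these were chosen after their values were seen. Positions came from GENCODE M21 and promoters from RefSeq (GRCm38.p6), matched by symbol for 7 of the 9 genes. Alternatives covered pseudocount, filter, scaling, small-RNA entries, variance prior, replicate block, the groups fitted, hairpins as 1 group and omission of each library; chromosome centring was added after seeing the data.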

Additional observations from a re-analysis of the deposited data

Results flagged for a closer look

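For 7 of the 8 genes tested, the levels of the hairpin groups differed by the direct test of shPthlh2 minus shPthlh1, and hairpin and clone cannot be told apart. The log2 difference was 1.80 for Lamb1, 0.98 for Lamb3, 0.93 for Lama5, 0.45 for Col4a1, 0.42 for Hspg2, 0.36 for Col4a2 and 0.32 for Lamc1. For Lama5 it was 0.65 with each chromosome centred on its own median. Pthlh itself was at 0 and 0.106 TPM in shPthlh1 and at 0.0423 and 0.263 TPM in shPthlh2 libraries, and these libraries of the hairpin groups overlapped. Levels this low cannot show whether the 2 hairpins lowered Pthlh equally.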

How the results depend on the processing

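The calls of Lama5, Lamb1, Lamb3 and Lamc1 for shPthlh1 minus shNT held under all 17 alternatives run. With each library left out in turn, the count of the 8 genes called was 4 to 6 lower and 0 to 0 higher for shPthlh1 minus shNT, 0 in both directions for shPthlh2 minus shNT, 5 to 7 higher and 0 lower for shPthlh2 minus shPthlh1, and 3 to 4 lower and 0 higher for the mean of both hairpins minus shNT. For shPthlh2 minus shNT, 2 genes were called higher with a mean of at least 5 TPM, where fewer genes were tested. For the mean of both hairpins, 0 were called lower with the hairpins as 1 group. Signs that turned, none of them called: Lamb2 for shPthlh1 minus shNT was -0.057 with median-ratio scaling, -0.033 with quantile normalization and -0.13 without small-RNA entries, and -0.042 to 0.13 with a library left out. Hspg2 for shPthlh1 minus shNT was -0.16 to 0.042 with a library left out. For shPthlh2 minus shNT, Lama5 was -0.045, -0.034 and -0.083 with the same 3 scalings, Lamb2 was 0.049 with each chromosome centred, and with a library left out Lamb1 was -0.075 to 0.017, Lamb2 was -0.14 to 0.028 and Lamc1 was -0.059 to 0.036. For the mean of both hairpins, Col4a2 was -0.081, -0.056 and -0.14 with the 3 scalings, -0.10 with each chromosome centred and -0.0033 to 0.039 with a library left out; Lamb2 was 0.11 with each chromosome centred and -0.092 to 0.078 with a library left out, and Col4a1 -0.15 to 0.0098. The cause of these turns was not tested.

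The replicate numbers did not pair the libraries: same-numbered deviations correlated at -0.052 to 0.040 between groups. With the replicate block, Col4a2 for shPthlh1 minus shNT missed the threshold (-0.16; limma adjusted p = 0.0512), and over all genes 163 rather than 765 were higher and 113 rather than 347 lower for shPthlh2 minus shNT. That count rests on both shPthlh2 libraries: without shPthlh2 replicate 1 limma called 6 higher and 0 lower, and without shPthlh2 replicate 2 it called 8 higher and 1 lower. Over all genes, 46 higher and 51 lower were called for this comparison without shPthlh1 replicate 1 or replicate 2, 47 and 51 with only the groups compared, 374 and 211 with no filter, 472 higher with no variance trend, and 2091 and 562 without shNT replicate 2. For shPthlh1 minus shNT, 3702 genes were higher, against 2227 without shPthlh1 replicate 1, 2352 without shPthlh1 replicate 2 and 2329 with each chromosome centred. Read depth is unknown, so the precision of low levels such as that of Lama3 cannot be given.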
